A study of Arabidopsis thaliana with 6 samples.

Results

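Aquaporins are channel proteins that let water, and in some subfamilies small neutral solutes such as glycerol, urea or boric acid, pass through membranes. The family is described here by its 35 listed genes in Arabidopsis thaliana, out of 30424 genes in the count tables. They are 13 PIP genes (plasma membrane intrinsic proteins), 10 TIP genes (tonoplast intrinsic proteins), 9 NIP genes (nodulin 26-like intrinsic proteins) and 3 SIP genes (small basic intrinsic proteins). Members were taken by gene identifier from the list of the family, and 22 of the 35 had enough counts to be tested. The family itself was chosen by its RGF1 and Mock counts, with earlier results of that comparison known. Its fold changes, p-values and counts of called members in that comparison are therefore a description of the family and are not independent evidence.

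The study measured RNA from the dissected meristematic zone of primary roots in 6 libraries. In the RGF1 group, Col-0 seedlings homozygous for a HYP2-GFP transgene spent 1 h in liquid MS medium with 100 nM RGF1, a secreted signalling peptide that maintains the root meristem. In the Mock group, seedlings with the same background and transgene spent 1 h in that medium with water. Both groups were 6 days past germination, and each had 3 libraries, from 20 root sections apiece. The zone was recognised by its GFP fluorescence, and the promoter of the reporter is not given in the labels. Per the labels, RNA was extracted 3 times per treatment, and it is not stated whether on separate days or from separate plates. The spread on which the p-values rest may thus be technical in part.

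Total counts were 9495012, 7004292 and 5421243 in RGF1 replicates 1 to 3, and 8959505, 8976382 and 6451658 in Mock replicates 1 to 3. Levels are given as CPM, counts scaled to the size of the library by the TMM method, and gene positions refer to TAIR10.1. Of 7 root meristem markers 6 had enough counts to be tested, and their summed level was 213, 243 and 237 CPM in RGF1 libraries and 166, 265 and 272 CPM in Mock libraries. WOX5, the marker of the quiescent centre, was at 0 in all RGF1 libraries and in 2 of 3 Mock libraries. Libraries with the same replicate number deviated together, and each comparison is given without and with the replicate number as a block. A gene was called at an edgeR quasi-likelihood p, adjusted by the Benjamini-Hochberg method over all 16737 genes tested, below 0.05. The meristem sum was carried mainly by SCR and SHR and hid changes of either sign. Of the 6 tested markers, 4 had negative and 2 positive log2 fold changes. PLT2 was higher in RGF1 without overlap of the groups, as were 7.30% of all tested genes. Its log2 fold change was 1.23 ± 0.50 (edgeR adjusted p = 0.549, and 0.405 with the block). That of CYCB1;1 was -0.74 ± 0.54, with overlapping groups.

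Plant aquaporins are named by the membrane or lineage in which they were found. PIPs move water across the plasma membrane and fall into the PIP1 and PIP2 groups, whose members assemble together as tetramers. TIPs do the same at the vacuole membrane, the tonoplast, and are abundant where cells expand. NIPs carry metalloids and other small solutes, with NIP5;1 known as a boric acid channel needed for boron uptake by roots, and SIPs reside in the endoplasmic reticulum. In roots, PIPs and TIPs are known for setting the hydraulic conductivity of the tissue.

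The pore of an aquaporin is lined by a pair of Asn-Pro-Ala boxes, and the coding sequence around the first box shows how the subfamilies differ. The stretches below hold 30 coding bases from the TAIR10.1 RefSeq annotation, with the 3 codons of the first box in capitals, and were chosen to show 1 or 2 expressed members of each subfamily.
PIP1;3: ggtgggcacataAACCCAGCGgtgacattt
PIP2;7: ggtggtcacattAACCCAGCTgtgactttc
TIP1;1: ggtggacacgttAACCCTGCCgtcactttc
TIP2;1: ggtggccatgtgAACCCAGCCgtcactttt
NIP1;1: ggtgctcatatcAATCCGGCCgttaccatt
NIP5;1: ggggctcacctaAACCCATCActgaccata
SIP1;1: agcgctagcttcAATCCTACCggaagcgct
SIP2;1: ggcgggctttatAATCCTTTGaccgctttg
In the PIP and TIP stretches and the first NIP stretch the capitals encode Asn-Pro-Ala. In the other lines they encode Asn-Pro-Ser, Asn-Pro-Thr and Asn-Pro-Leu, in the order shown. Counted over whole coding sequences, 2 Asn-Pro-Ala codon boxes were found in 13 of 13 PIPs, 10 of 10 TIPs and 4 of 9 NIPs. A single box was found in 4 of 9 NIPs and 3 of 3 SIPs, and NIP5;1 had 0. The stretch was split by an intron in all 13 PIP genes and lay within 1 exon in all 10 TIP genes. From the first line to the last, the stretches lie at chr1:226663-226849 (minus strand), chr4:16708957-16709078 (plus), chr2:15445730-15445759 (plus), chr3:5505871-5505900 (plus), chr4:10422941-10422970 (minus), chr4:6432360-6432389 (minus), chr3:1073807-1073836 (minus) and chr3:21079423-21079452 (minus).

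Of the 35 members, 12 of 13 PIPs, 5 of 10 TIPs, 2 of 9 NIPs and 3 of 3 SIPs had enough counts to be tested. A member could pass through 1 group alone, so the tested members are not the whole family. The TIPs AT4G01470, AT1G17810 and AT3G47440 and the NIPs AT4G18910, AT5G37810 and AT5G37820 had 0 counts in the 6 libraries. At these depths a gene with 0 counts can lie anywhere under the floor of 3 counts, which was 0.313, 0.440 and 0.565 CPM in RGF1 libraries and 0.321, 0.336 and 0.470 CPM in Mock libraries. These floors cover counting error only.

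The other 7 untested members had few counts. PIP2;5 had 0 counts in each RGF1 library, and 0, 1 and 4 counts in Mock replicates 1 to 3. TIP3;1, a seed tonoplast protein, had 0 counts in each RGF1 library, and 0, 10 and 1 counts in Mock libraries. TIP2;3 had 1, 4 and 0 counts in RGF1 replicates 1 to 3, and 136, 65 and 1 counts in Mock replicates 1 to 3. This gene thus stood out in the first and second Mock libraries and was close to 0 in the third. NIP2;1 had 7, 11 and 6 counts in RGF1 libraries, and 3, 24 and 1 counts in Mock libraries. NIP3;1 had 6, 8 and 1 counts in RGF1 libraries, and 4, 1 and 1 counts in Mock libraries. Both NIPs have a near copy in the genome, AT2G29870 for the first and the pseudogene AT2G21020 for the second, so reads may have been shared or lost. The NIPs AT1G80760 and AT3G06100 had at most 8 counts in any library.

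**Figure D1:**
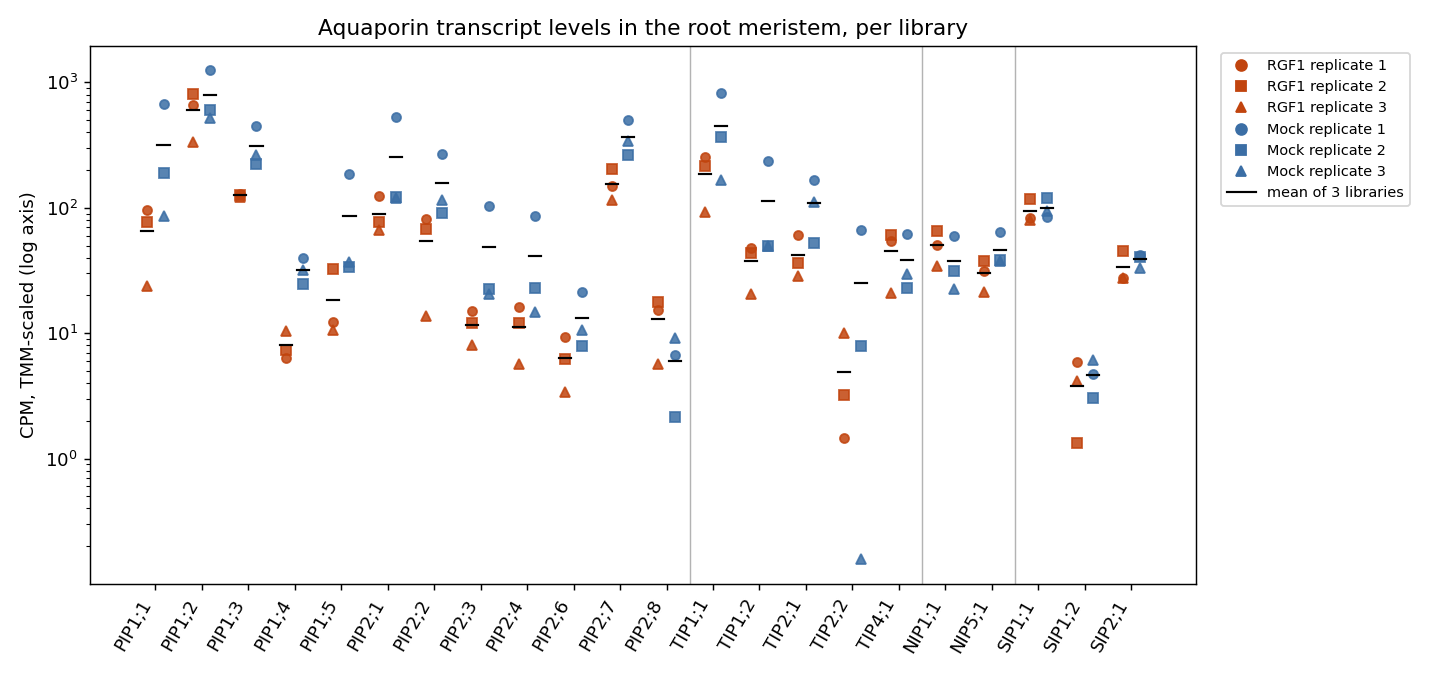
Level of each of the 22 tested aquaporins in every library, in CPM on a log axis, with RGF1 libraries left of Mock libraries within each gene. PIP1;2 was the highest member in both groups, and Mock replicate 1 was the highest Mock library for 19 of the 22.

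Compared between genes per kb of transcript, PIP1;2 had the highest level of the family, with 399 ± 162 CPM per kb in RGF1 libraries and 523 ± 265 in Mock libraries (SD, n = 3 each). In Mock libraries it ranked 112 among 16588 genes ranked by level per kb, within the top 0.675%. TIP1;1, a vacuolar water channel, came next with 151 ± 67.9 CPM per kb in RGF1 libraries and 364 ± 272 in Mock libraries. Below it PIP2;7 had 97.2 ± 27.4 CPM per kb in RGF1 libraries and 231 ± 76.3 in Mock libraries. PIP1;1 had 42.2 ± 24.2 CPM per kb in RGF1 libraries and 203 ± 201 in Mock libraries, and PIP1;3 had 81.0 ± 1.93 and 201 ± 76.0 in those groups. PIP1;2 was the highest in each Mock library, and the order of the members below it lay within the spread between libraries. SIP1;1 was the highest SIP with 72.7 ± 16.2 CPM per kb in RGF1 libraries and 77.1 ± 14.3 in Mock libraries. The highest NIP was NIP1;1, with 37.1 ± 11.3 CPM per kb in RGF1 libraries and 28.0 ± 14.2 in Mock libraries.

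Summed over the 13 PIPs, the level was 1309.6, 1454 and 719.9 CPM in RGF1 replicates 1 to 3, and 4105, 1600.4 and 1575 CPM in Mock replicates 1 to 3. Every RGF1 library lay below every Mock library, and Mock replicate 1 stood far above the other Mock libraries. The ratio of the group means, RGF1 over Mock, was 0.478, and it was 0.731 without Mock replicate 1. The TIP sum was 419, 360.1 and 173 CPM in RGF1 replicates 1 to 3, and 1369, 506 and 356 CPM in Mock replicates 1 to 3. The TIP groups overlapped, since the second and the first RGF1 libraries exceeded the third Mock library. The ratio of the TIP means was 0.427, and 0.736 without Mock replicate 1, a setting chosen after the data were seen.

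The NIP and SIP sums did not separate the groups. The NIP sum was 83.2, 106 and 57.8 CPM in RGF1 libraries, and 124, 72.6 and 61.9 CPM in Mock libraries. The SIP sum was 117, 165 and 112 CPM in RGF1 libraries, and 132, 164 and 133 CPM in Mock libraries. The ratio of means was 0.956 for NIPs and 0.918 for SIPs. Without Mock replicate 1 it was 1.22 for NIPs, on the other side of 1, and 0.883 for SIPs. In both subfamilies the groups overlapped, and the PIP and TIP ratios were below these with and without Mock replicate 1. In whole root sections, fewer cells of an expressing type and less RNA per cell cannot be told apart. The family as a whole took 0.195%, 0.203% and 0.104% of all counts in RGF1 replicates 1 to 3, against 0.597%, 0.233% and 0.210% in Mock replicates 1 to 3.

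**Figure D2:**
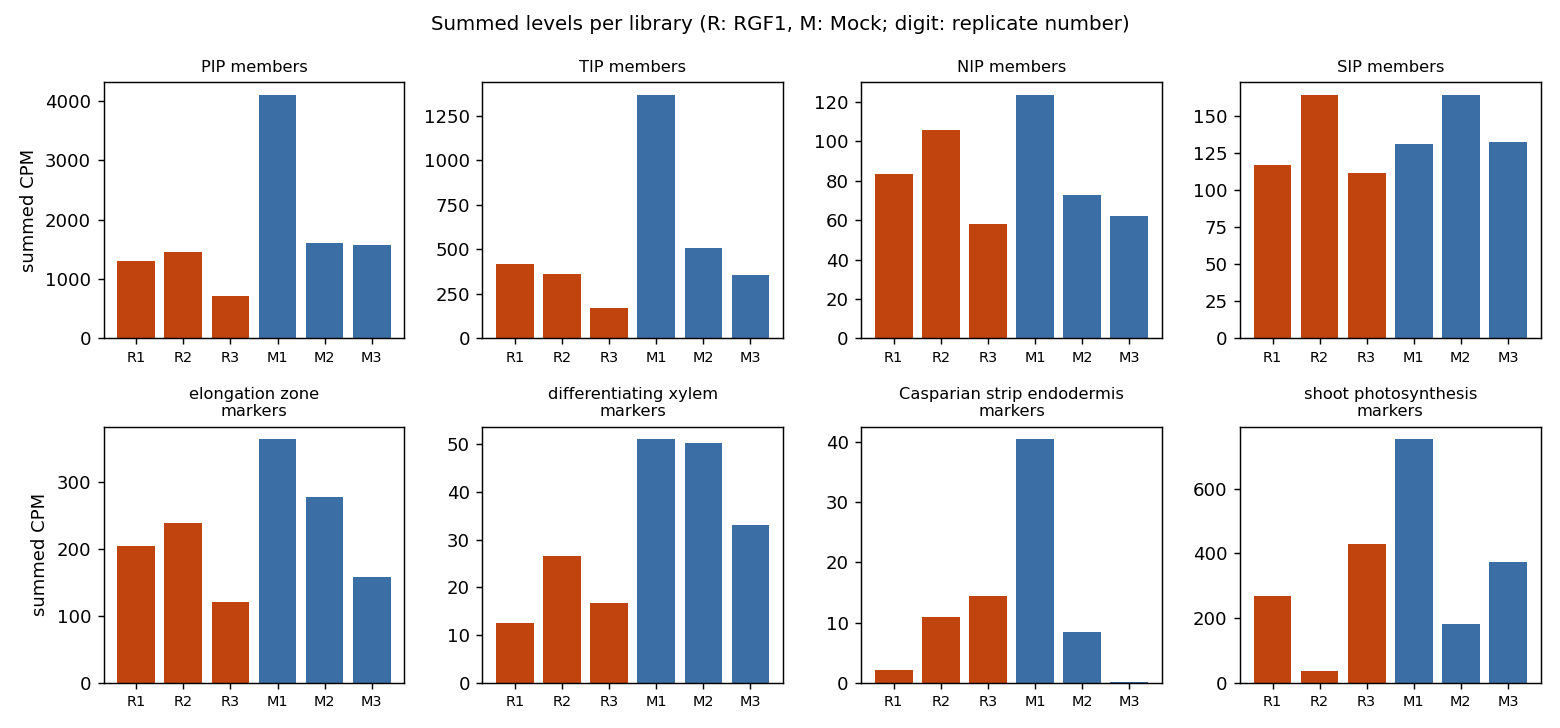
Summed level of each subfamily in every library, in CPM, with RGF1 libraries left of Mock libraries. Further panels show the sums of the elongation zone, differentiating xylem, Casparian strip and photosynthesis markers. The PIP sum was 719.9 to 1454 CPM in RGF1 libraries and 1575 to 4105 CPM in Mock libraries, while the NIP and SIP sums of the groups overlapped.

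Fitted without the block, 0 of the 22 tested members were called, beside 0.0299% of all genes called lower and 0.466% called higher. An unadjusted p below 0.05 with a lower level was found for 12 members, beside 3.50% of all genes. With the replicate block 8 members fell and 0 rose, beside 0.562% of all genes called lower and 1.24% called higher. The 8 were PIP1;1, PIP1;3, PIP1;4, PIP2;1, PIP2;2, PIP2;7, TIP1;1 and TIP2;1. DESeq2 called 4 of the 22 lower, all of them PIPs, and TIP2;3 in addition (adjusted p = 0.0119), beside 0.444% of the genes it tested called lower and 1.28% called higher. The voom fit of limma called 0 members, beside 0.0239% of all genes called lower. The median log2 fold change was -1.52 over the 12 tested PIPs, -1.38 over the 5 TIPs, -0.11 over the 2 NIPs and -0.21 over the 3 SIPs, beside -0.01 over all tested genes. A log2 fold change of -1 or below was fitted for 14 members, all among the 17 tested PIPs and TIPs, and 6.97% of all genes had one. One of 1 or above was fitted for 1 member, PIP2;8, and for 5.52% of all genes. The 5 tested NIPs and SIPs held 0 such genes.

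**Figure D3:**
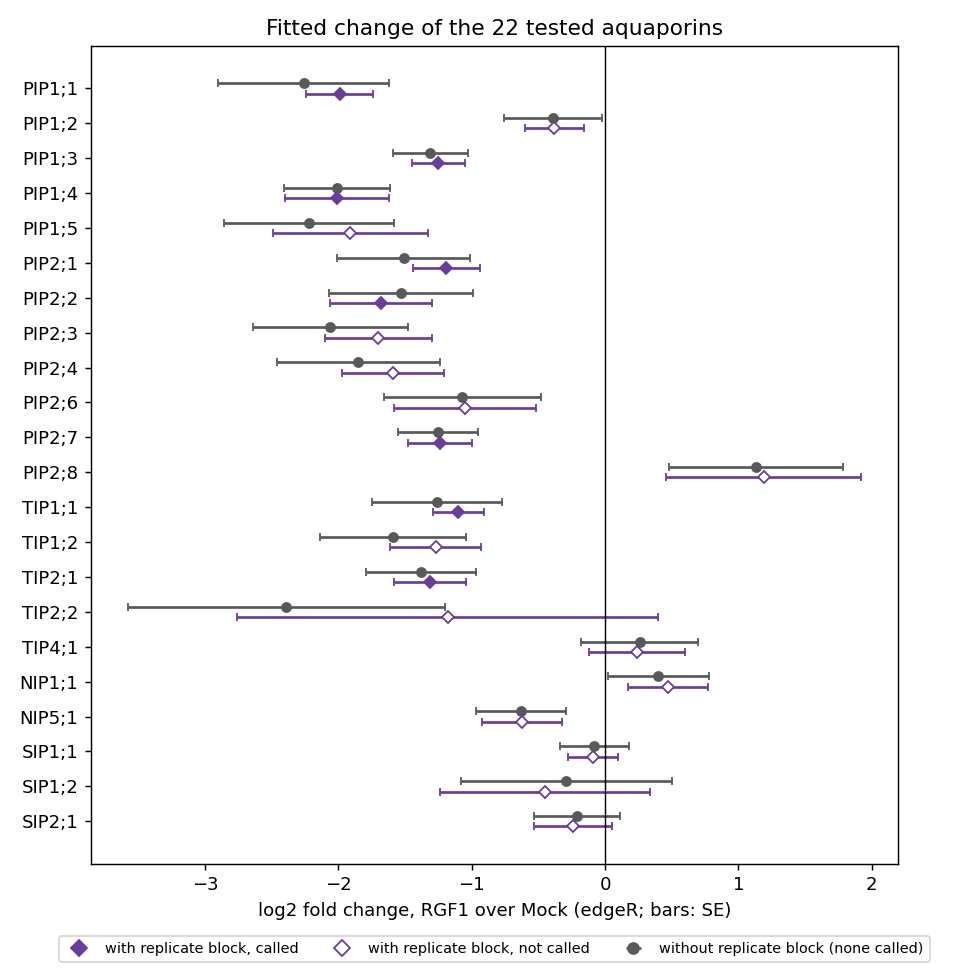
Log2 fold change of RGF1 over Mock for the 22 tested members, from edgeR with the replicate block (diamonds, filled where called) and without it (circles), with standard errors as bars. The 8 filled diamonds are PIPs and TIPs below 0, and a single PIP lies above 0.

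Among the 5 PIP1 genes, whose median log2 fold change was -2.01, 3 fell with the block. PIP1;1 (AT3G61430, chr3:22733243-22735394) had 96.4, 77.1 and 23.7 CPM in RGF1 replicates 1 to 3, and 671, 189 and 86.2 CPM in Mock replicates 1 to 3. The groups overlapped, because RGF1 replicate 1 exceeded Mock replicate 3, yet each RGF1 library was below the Mock library of its number. The fitted log2 fold change was -2.26 ± 0.64 (SE, edgeR adjusted p = 0.229), and -1.99 ± 0.25 with the block (adjusted p = 0.00142). Without Mock replicate 1, and with no block, it was -1.06.

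PIP1;3 (AT1G01620, chr1:225665-227543) had 128, 126 and 122 CPM in RGF1 replicates 1 to 3, and 446, 226 and 264 CPM in Mock replicates 1 to 3. The RGF1 libraries were nearly equal and all below the lowest Mock library. The fit gave a log2 fold change of -1.31 ± 0.28 (edgeR adjusted p = 0.0657), -1.25 ± 0.20 with the block (adjusted p = 0.00537), and it was called by DESeq2 (adjusted p = 0.00176). PIP1;4 (AT4G00430, chr4:185285-187680) had 6.36, 7.34 and 10.4 CPM in RGF1 replicates 1 to 3, and 39.4, 24.7 and 32.1 CPM in Mock replicates 1 to 3. Here too the groups did not overlap, and Mock replicate 1 was close to the other Mock libraries. A log2 fold change of -2.01 ± 0.40 was fitted (edgeR adjusted p = 0.0512), -2.01 ± 0.39 with the block (adjusted p = 0.0211), and called by DESeq2 (adjusted p = 0.000291). With Mock replicate 1 left out, the change of the first of these genes was -0.96 and that of the second -1.83 on the log2 scale, both fitted with no block.

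PIP1;5 (AT4G23400, chr4:12220641-12222468) had 12.3, 32.4 and 10.5 CPM in RGF1 replicates 1 to 3, and 188, 33.5 and 36.9 CPM in Mock replicates 1 to 3. The groups did not overlap by a narrow margin, and in number 2 the libraries were nearly equal. The log2 fold change of -2.22 ± 0.64 was not called (edgeR adjusted p = 0.234, and 0.156 with the block), and it was -0.93 without Mock replicate 1. PIP1;2 (AT2G45960, chr2:18910081-18911982), the most abundant member, had 656, 815 and 334 CPM in RGF1 replicates 1 to 3, and 1248, 597 and 521 CPM in Mock replicates 1 to 3. The groups overlapped, with RGF1 above Mock in number 2 and below it in the other numbers. Its log2 fold change was -0.39 ± 0.37 (edgeR adjusted p = 0.888), and without Mock replicate 1 it was 0.11.

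This gene made up a larger part of the PIP transcripts in RGF1 libraries. Its share of the summed PIP level was 50.1%, 56.1% and 46.4% in RGF1 replicates 1 to 3, and 30.4%, 37.3% and 33.1% in Mock replicates 1 to 3. The groups did not overlap, and this share does not depend on how libraries were scaled. It averaged 50.9 ± 4.88% in RGF1 libraries and 33.6 ± 3.49% in Mock libraries (SD, n = 3 each). The NIP share of the whole family's level was 4.32%, 5.08% and 5.44% in RGF1 libraries, and 2.16%, 3.10% and 2.91% in Mock libraries, again without overlap. The PIP, TIP and SIP shares of the family's level overlapped between the groups. A share also depends on the other members, and the ratio of means of the NIP sum itself was 0.956. No test was made of these shares, which use the same comparison by which the family was chosen.

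Among the PIP2 genes, which form water channels of high activity, 3 of 7 tested members fell with the block. PIP2;7 (AT4G35100, chr4:16708361-16710407) had 149.5, 202 and 115 CPM in RGF1 replicates 1 to 3, and 504, 263 and 344 CPM in Mock replicates 1 to 3. All RGF1 libraries lay below all Mock libraries. Over the groups the log2 fold change was -1.25 ± 0.30 (edgeR adjusted p = 0.113), -1.24 ± 0.24 with the block (adjusted p = 0.0183) and -0.96 without Mock replicate 1, and DESeq2 called it (adjusted p = 0.00815). PIP2;1 (AT3G53420, chr3:19803473-19805730), a major root plasma membrane water channel, had 124, 77.7 and 67.1 CPM in RGF1 replicates 1 to 3, and 525, 121 and 119 CPM in Mock replicates 1 to 3. RGF1 replicate 1 was slightly above Mock replicates 2 and 3, so the groups overlapped. Its log2 fold change was -1.51 ± 0.50 (edgeR adjusted p = 0.367), -1.19 ± 0.25 with the block (adjusted p = 0.0336) and -0.42 without Mock replicate 1.

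PIP2;2 and PIP2;3 are neighbours on chromosome 2, 2612 bp apart on opposite strands, and their coding sequences were 94.8% identical over 858 bases, with 45 differences. Their longest run without a difference was 242 bases, so short reads may have been split between them. The 120 bases shown next hold 16 of the differences, in capitals, by which reads could be told apart.
PIP2;2: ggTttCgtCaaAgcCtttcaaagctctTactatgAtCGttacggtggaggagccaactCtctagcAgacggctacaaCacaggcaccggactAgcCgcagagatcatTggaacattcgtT
PIP2;3: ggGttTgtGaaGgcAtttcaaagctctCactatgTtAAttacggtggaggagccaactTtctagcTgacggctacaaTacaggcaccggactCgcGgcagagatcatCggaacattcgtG
In TAIR10.1 the first of these runs lies at chr2:15614137-15614256 (minus strand) and the second at chr2:15618314-15618433 (plus strand). PIP2;2 (AT2G37170, chr2:15613368-15615022) had 81.2, 67.7 and 13.7 CPM in RGF1 replicates 1 to 3, and 266, 90.3 and 116 CPM in Mock replicates 1 to 3. No RGF1 library reached a Mock library, and RGF1 replicate 3 was far below the other RGF1 libraries. The change on the log2 scale was -1.53 ± 0.54 (edgeR adjusted p = 0.416), -1.68 ± 0.38 with the block (adjusted p = 0.0443) and -0.92 without Mock replicate 1. PIP2;3 (AT2G37180, chr2:15617635-15619155) had 14.9, 12.04 and 8.10 CPM in RGF1 replicates 1 to 3, and 104, 22.4 and 20.7 CPM in Mock replicates 1 to 3. Its groups did not overlap either, and its log2 fold change of -2.06 ± 0.58 was not called (edgeR adjusted p = 0.225, and 0.0580 with the block). It was called by DESeq2 (adjusted p = 0.0169), and it was -0.88 without Mock replicate 1.

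The remaining PIP2 genes were lower in level and were not called. PIP2;4 (AT5G60660, chr5:24375368-24377206) had 16.1, 12.04 and 5.65 CPM in RGF1 replicates 1 to 3, and 85.3, 23.1 and 14.7 CPM in Mock replicates 1 to 3. Its groups overlapped narrowly, and its log2 fold change was -1.85 ± 0.61 (edgeR adjusted p = 0.356, and 0.0624 with the block) and -0.74 without Mock replicate 1. PIP2;6 (AT2G39010, chr2:16291280-16294101) had 9.38, 6.17 and 3.39 CPM in RGF1 replicates 1 to 3, and 21.4, 7.83 and 10.7 CPM in Mock replicates 1 to 3, with overlapping groups and a log2 fold change of -1.07 ± 0.59 (edgeR adjusted p = 0.725) that was -0.54 without Mock replicate 1. PIP2;8 (AT2G16850, chr2:7301334-7303509) was the PIP with a positive log2 fold change, 1.13 ± 0.65 (edgeR adjusted p = 0.745) and 1.22 without Mock replicate 1. It had 15.4, 17.8 and 5.65 CPM in RGF1 replicates 1 to 3, and 6.64, 2.13 and 9.10 CPM in Mock replicates 1 to 3. Its groups overlapped, and RGF1 was below Mock in number 3.

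Of the 5 tested TIPs, TIP1;1 and TIP2;1 fell with the block. TIP1;1 (AT2G36830, chr2:15445294-15446621) had 254, 215 and 93.0 CPM in RGF1 replicates 1 to 3, and 821, 365 and 165 CPM in Mock replicates 1 to 3. In both groups the first library was the highest and the third the lowest, the groups overlapped, and each RGF1 library was below the Mock library of its number. The fitted change was -1.26 ± 0.49 on the log2 scale (edgeR adjusted p = 0.510), -1.10 ± 0.19 with the block (adjusted p = 0.0104) and -0.50 without Mock replicate 1. TIP2;1 (AT3G16240, chr3:5505360-5507050), a tonoplast channel that also carries ammonia, had 61.2, 36.4 and 28.4 CPM in RGF1 replicates 1 to 3, and 166, 52.4 and 111 CPM in Mock replicates 1 to 3. The groups overlapped by RGF1 replicate 1 and Mock replicate 2 only. For this gene the log2 fold change was -1.38 ± 0.41 (edgeR adjusted p = 0.258), -1.31 ± 0.27 with the block (adjusted p = 0.0299) and -0.95 without Mock replicate 1.

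TIP1;2 (AT3G26520, chr3:9722443-9723904) had 47.6, 43.7 and 20.5 CPM in RGF1 replicates 1 to 3, and 238, 49.9 and 49.9 CPM in Mock replicates 1 to 3. The groups did not overlap, although RGF1 and Mock were close in number 2. The log2 fold change of -1.59 ± 0.55 was not called (edgeR adjusted p = 0.404, and 0.101 with the block), and it was -0.42 without Mock replicate 1. TIP2;2 (AT4G17340, chr4:9698940-9700472) had 1.46, 3.23 and 9.98 CPM in RGF1 replicates 1 to 3, and 67.1, 7.83 and 0.157 CPM in Mock replicates 1 to 3. RGF1 was below Mock in numbers 1 and 2 and above it in number 3. Its log2 fold change was -2.39 ± 1.19 (edgeR adjusted p = 0.683), and it was 0.26 without Mock replicate 1. TIP4;1 (AT2G25810, chr2:11012499-11014171) had 54.5, 60.9 and 21.1 CPM in RGF1 replicates 1 to 3, and 61.8, 22.8 and 29.6 CPM in Mock replicates 1 to 3, with a log2 fold change of 0.26 ± 0.44 (edgeR adjusted p = 0.953). Here the groups overlapped, and RGF1 was above Mock in number 2 only.

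The tested NIPs were not called. NIP5;1 (AT4G10380, chr4:6431161-6435396) had 31.0, 37.7 and 21.3 CPM in RGF1 replicates 1 to 3, and 63.6, 38.4 and 37.3 CPM in Mock replicates 1 to 3. The groups overlapped by a small margin between RGF1 replicate 2 and Mock replicate 3. A log2 fold change of -0.63 ± 0.34 was fitted (edgeR adjusted p = 0.719, and 0.417 with the block), and it was -0.33 without Mock replicate 1. NIP1;1 (AT4G19030, chr4:10421521-10423508), which is known to carry arsenite, had 50.8, 64.9 and 34.5 CPM in RGF1 replicates 1 to 3, and 59.4, 31.5 and 22.6 CPM in Mock replicates 1 to 3. Its groups overlapped, and its log2 fold change was 0.40 ± 0.38 (edgeR adjusted p = 0.885) and 0.89 without Mock replicate 1.

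The SIPs were not called either. SIP1;1 (AT3G04090, chr3:1071984-1074244) had 83.6, 118 and 80.2 CPM in RGF1 replicates 1 to 3, and 84.9, 120.4 and 93.6 CPM in Mock replicates 1 to 3. Same-numbered libraries were nearly equal, with log2 ratios of -0.02, -0.03 and -0.22. Fitted over all libraries, the log2 fold change was -0.08 ± 0.26 (edgeR adjusted p = 0.980). SIP2;1 (AT3G56950, chr3:21078297-21079925) had 27.5, 45.5 and 27.5 CPM in RGF1 libraries, and 42.1, 40.9 and 33.2 CPM in Mock libraries, with overlapping groups and a log2 fold change of -0.21 ± 0.32 (edgeR adjusted p = 0.944). SIP1;2 (AT5G18290, chr5:6055028-6058368) had 5.83, 1.32 and 4.14 CPM in RGF1 libraries, and 4.71, 3.02 and 6.12 CPM in Mock libraries, and its log2 fold change was -0.29 ± 0.79 (edgeR adjusted p = 0.975). Both of these SIPs, and AT3G16240 (TIP2;1), overlap genes on the opposite strand. How the counting used strand is not stated in the labels, so reads of these genes and their partners may not have been told apart.

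Within each replicate number the PIPs and TIPs had medians of the same sign and of different sizes. The median log2 ratio of RGF1 over Mock across the 12 tested PIPs was -1.94 in number 1, -0.53 in number 2 and -1.46 in number 3. Across the 5 tested TIPs it was -1.69, -0.52 and -0.83 in numbers 1 to 3. Ratios were thus deepest in number 1 and shallowest in number 2 for both subfamilies. NIPs had medians of -0.63, 0.51 and -0.10, and SIPs had medians of -0.02, -0.03 and -0.27. RGF1 was below Mock in all 3 numbers for 10 of 12 PIPs, 3 of 5 TIPs, 1 of 2 NIPs and 1 of 3 SIPs, together 15 of 22 members, and for 17.9% of all tested genes. All 3 RGF1 libraries lay below all 3 Mock libraries for 7 members, of which 6 were PIPs and 1 was a TIP, and for 6.18% of all tested genes. The opposite was found for 0 members and for 7.30% of all tested genes.

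**Figure D4:**
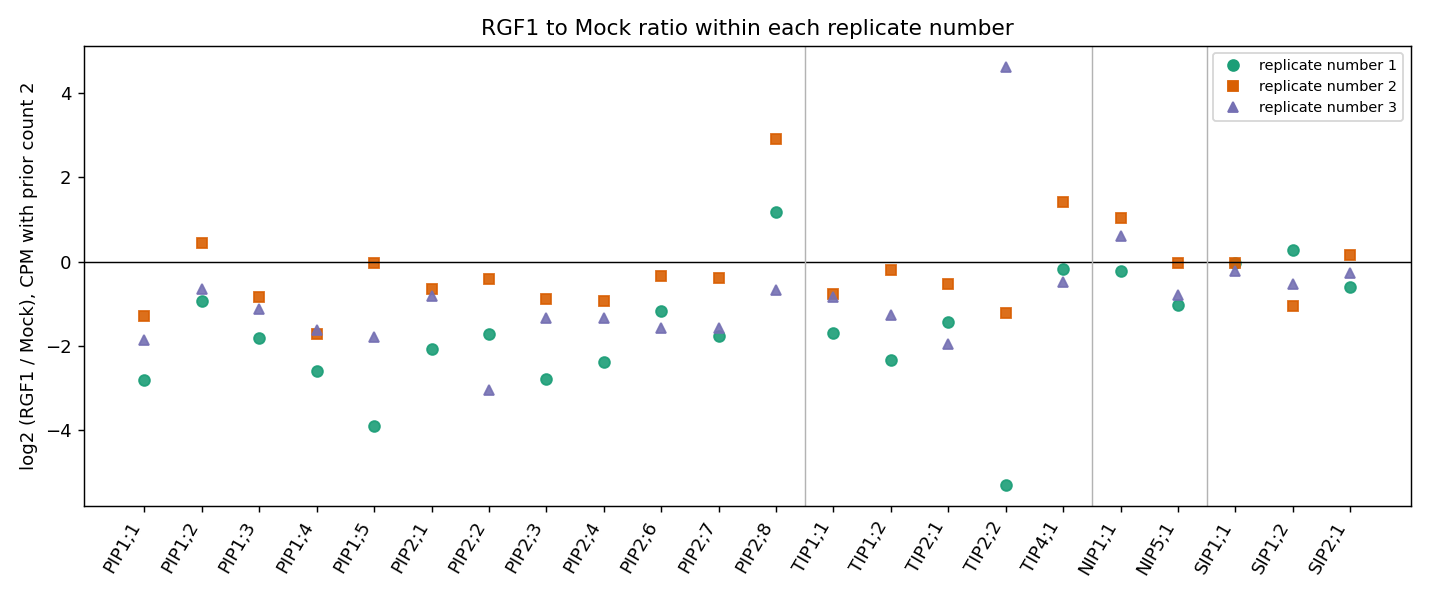
Log2 ratio of RGF1 over Mock for each tested member within replicate numbers 1 to 3, with a horizontal line at no change and vertical lines between subfamilies. The PIP medians were -1.94, -0.53 and -1.46 and the SIP medians -0.02, -0.03 and -0.27.

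Mock replicate 1 and RGF1 replicate 3 stood apart from the other libraries of their groups for most members. Mock replicate 1 was the highest Mock library for 19 of the 22 tested members, as it was for 34.6% of all tested genes. It was at least 2-fold above both other Mock libraries for 12 members, all of them PIPs or TIPs, and for 6.72% of all tested genes. RGF1 replicate 3 was the lowest library of its group for 19 of the 22 members and for 33.4% of all tested genes. With both libraries of number 1 left out and the block kept, a setting chosen after the data were seen, 3 members were called (AT3G61430, AT1G01620 and AT2G36830, which are PIP1;1, PIP1;3 and TIP1;1), beside 0.361% of all genes called lower, and the PIP median was -0.98. The same 3 were called without both libraries of number 3, where 0.229% of all genes were called lower. Without those of number 2, 13 members were called, in a fit that also called more genes in all, 0.771% of them lower.

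Markers of cells outside or at the edge of the meristematic zone varied between the libraries as well. The summed level of 5 differentiating xylem markers was 12.5, 26.6 and 16.8 CPM in RGF1 replicates 1 to 3, and 51.1, 50.4 and 33.1 CPM in Mock replicates 1 to 3. Those sums did not overlap, and 4 of 4 tested xylem markers had negative log2 fold changes, with a median of -1.38. CESA4 among them was at -0.02 ± 0.79, no clear change. Of 4 XTH genes of wall remodelling, listed as elongation zone markers, 3 were tested and all 3 had negative log2 fold changes, with a median of -0.77. The untested XTH20 went the other way at low counts, with 3.02, 4.84 and 0 CPM in RGF1 libraries and 0.429, 0 and 0 CPM in Mock libraries. The summed level of the 4 was 204, 238 and 121 CPM in RGF1 libraries, and 364, 278 and 158 CPM in Mock libraries, which overlapped. Mock replicate 1 had the highest sum for both lists. The part of these cells in the PIP and TIP values was not tested.

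The 5 Casparian strip markers of the differentiated endodermis summed to 2.19, 10.9 and 14.5 CPM in RGF1 replicates 1 to 3, and 40.5, 8.39 and 0.157 CPM in Mock replicates 1 to 3. CASP1 to CASP4 were at 0 in Mock replicate 3, and, as for TIP2;2, Mock replicate 1 was the highest of the 6 libraries and Mock replicate 3 the lowest. The 5 root hair markers summed to 13.4, 48.7 and 30.9 CPM in RGF1 libraries, and 45.5, 25.9 and 8.62 CPM in Mock libraries. The 4 root cap markers summed to 20.4, 42.6 and 25.4 CPM in RGF1 libraries, and 26.6, 19.4 and 44.4 CPM in Mock libraries. Neither of these sums separated the groups. Of the root hair markers, 2 had negative and 3 positive log2 fold changes. RHS19 had 2.81, 19.1 and 14.3 CPM in RGF1 libraries and 1.93, 1.01 and 0 CPM in Mock libraries. Its RGF1 libraries lay above its Mock libraries, as for 7.30% of all tested genes. The log2 fold change of RHS19 was 3.55 ± 1.03 (edgeR adjusted p = 0.245, and 0.199 with the block), and that of COBL9 was -0.86 ± 0.56. The 4 photosynthesis markers summed to 269.8, 35.2 and 428 CPM in RGF1 libraries, and 754, 181 and 374 CPM in Mock libraries, with negative log2 fold changes for 4 of 4. No marker of these lists or of the meristem list was called in either fit.

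Genes listed as regulators of water transport had changes of either sign. Of 15 listed regulators of water transport 12 were tested, 6 with negative and 6 with positive log2 fold changes, with a median of -0.06. Without the block 0 were called, and 4 had an unadjusted p below 0.05. Of these AT3G24715 and SIRK1 were lower, beside 3.50% of all genes lower at that threshold. BAK1 and CPK7 were higher, a direction whose share over all genes was not counted. CPK7 had a log2 fold change of 0.83 ± 0.30 without overlap of the groups (edgeR adjusted p = 0.453, and 0.0809 with the block). With the block BAK1 rose, a co-receptor kinase of many peptide and hormone receptors. BAK1 had 257, 272 and 243 CPM in RGF1 replicates 1 to 3, and 182, 147 and 109.8 CPM in Mock replicates 1 to 3, without overlap. Its log2 fold change was 0.81 ± 0.25 (edgeR adjusted p = 0.294), and 0.84 ± 0.17 with the block (adjusted p = 0.0293).

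AT3G24715, annotated as a protein kinase with an octicosapeptide/Phox/Bem1p domain, fell with the block. It had 10.5, 9.54 and 2.64 CPM in RGF1 replicates 1 to 3, and 29.7, 50.5 and 12.9 CPM in Mock replicates 1 to 3, and all RGF1 libraries lay below all Mock libraries. Its log2 fold change was -2.02 ± 0.58 (edgeR adjusted p = 0.245), and -2.04 ± 0.40 with the block (adjusted p = 0.0213). SIRK1, a receptor kinase known to act on PIP2 channels under sucrose, had 53.0, 67.1 and 61.8 CPM in RGF1 replicates 1 to 3, and 102, 137 and 89.9 CPM in Mock replicates 1 to 3. The groups of SIRK1 did not overlap, and it was not called (edgeR adjusted p = 0.295, and 0.0702 with the block). SYP121 was higher without overlap, with 90.0, 76.2 and 68.7 CPM in RGF1 libraries and 65.6, 52.0 and 49.7 CPM in Mock libraries. SYP61 was lower without overlap, with 43.3, 41.2 and 50.7 CPM in RGF1 libraries and 64.2, 55.9 and 60.7 CPM in Mock libraries. Neither SYP gene was called in either fit. Over all tested genes, 6.18% lay lower and 7.30% higher in RGF1 without overlap.

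The 9 listed membrane proton pumps were all tested, with 0 called in either fit, 0 at an unadjusted p below 0.05 and a median log2 fold change of -0.26. AVP1, the proton pyrophosphatase of the same tonoplast in which TIPs lie, had 1224, 1639 and 1444 CPM in RGF1 replicates 1 to 3, and 1202, 1526 and 1711 CPM in Mock replicates 1 to 3. Its groups overlapped fully. Of 3 listed genes of boron and metalloid transport 2 were tested and 0 were called. The boron exporter BOR1 had a log2 fold change of -0.15 ± 0.32 and BOR2 one of -0.84 ± 0.36 (edgeR adjusted p = 0.598).

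Promoters are shown because 8 PIPs and TIPs fell with the block, 1 gene each for PIP1, PIP2 and TIP. Each sequence holds the 250 bases before the annotated gene start in TAIR10.1, with matches to the searched motifs in capitals.
PIP1;3: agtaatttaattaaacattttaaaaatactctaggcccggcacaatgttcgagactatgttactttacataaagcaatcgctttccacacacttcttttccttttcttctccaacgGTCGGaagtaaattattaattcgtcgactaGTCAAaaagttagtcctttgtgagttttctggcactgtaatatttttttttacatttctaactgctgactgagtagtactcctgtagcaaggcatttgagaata
PIP2;7: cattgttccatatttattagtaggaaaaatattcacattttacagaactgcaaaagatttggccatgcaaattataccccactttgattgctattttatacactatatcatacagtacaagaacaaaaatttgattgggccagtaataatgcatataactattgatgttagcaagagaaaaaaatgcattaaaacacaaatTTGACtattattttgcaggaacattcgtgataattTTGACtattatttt
TIP1;1: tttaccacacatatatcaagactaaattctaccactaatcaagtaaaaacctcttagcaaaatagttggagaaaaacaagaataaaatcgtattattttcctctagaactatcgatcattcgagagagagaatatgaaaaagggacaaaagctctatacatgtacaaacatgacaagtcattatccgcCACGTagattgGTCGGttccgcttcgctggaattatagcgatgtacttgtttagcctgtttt
In the order shown, they lie at chr1:227544-227793 (minus strand), chr4:16708111-16708360 (plus strand) and chr2:15445044-15445293 (plus strand). The motifs were the W-box core TTGAC, the G-box CACGTG, the abscisic acid response core ACGTG, which lies within the G-box, and the dehydration response core CCGAC, on both strands. The W-box core was found in 6 of 13 PIP and 5 of 10 TIP promoters, and in 44.9% of 27443 promoters of that length. In the sequences shown, the PIP2 gene had 2 matches to it and the PIP1 gene had 1, read as GTCAA on the printed strand. The abscisic acid response core was found in 0 of 13 PIP and 3 of 10 TIP promoters, and in 22.9% of all promoters. The dehydration response core was found in 2 PIP and 2 TIP promoters, and in 3285 of all promoters, and the G-box in 0 of 35 members and in 6.5% of all promoters. These counts cover tested and untested members alike. Of the 8 members that fell with the block, PIP1;1, PIP2;2 and TIP2;1 had no match to any of these motifs, and neither fallen TIP held the W-box core. A match describes these letters only and is not a binding site.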

How the data were processed

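RNA-seq read counts per gene, as deposited by the authors in 1 table per library, were used without normalisation by the authors. TopHat2 2.1.1, HTSeq, DESeq2 and the build TAIR10 are listed in the submitters' processing notes. The labels do not state the annotation release or how multi-mapping reads and strand were handled. Per the labels' protocols, 50 ng of total RNA was amplified before library preparation, which can add spread to low counts. Each table held 30424 genes, and 0 rows that named no gene.

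The comparison used the quasi-likelihood test of edgeR 4.0.16 under R 4.3.3, fitted over the 16737 genes that its default low-count filter kept, with TMM scaling. Adjustment was by the Benjamini-Hochberg method, with calls at an adjusted p below 0.05. Standard errors were derived from the F statistic. The test was checked on simulated data. Log2 ratios within a replicate number used a prior count of 2. DESeq2 1.42.0, limma-voom 3.58.1, other scalings, filters and left-out libraries were the alternatives.

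Groups share replicate numbers 1 to 3, which the labels do not explain. Deviations from the group means over tested genes correlated at 0.177, 0.214 and 0.299 between libraries of the same number, and at -0.166 to -0.043 otherwise. The numbers were therefore treated as pairing the libraries, from the data alone. No libraries were duplicates, with a chi-square per degree of freedom of 19.7 for the closest pair.

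The members, the other gene lists and the rule for genes described singly were chosen with earlier results of these data known. That rule took members called with or without the block, the 3 highest per kb of PIP, TIP and NIP and the highest SIP, those with a log2 fold change of at least 1 in size, those whose groups did not overlap, and members with a near copy. The other members, among them TIP4;1, SIP1;2 and SIP2;1, fell outside it and are given so that the whole family is accounted for. BLAST 2.17.0 was used to search for near copies, of 95% identity or more across 100 bp or more. Gene positions, names and sequences came from RefSeq, TAIR10.1, in which 30214 identifiers were matched.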

Additional observations from a re-analysis of the deposited data

How the results depend on the processing

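Counts of called genes and members moved with the model. The PIP median was -1.52 over all libraries with no block, and it shrank to -0.9 once Mock replicate 1 was dropped. Dropping RGF1 replicate 1 instead deepened it to -1.84, and the other settings lay between these values. These shifts were smaller than 0.72, the SD of the PIP medians within replicate numbers, which is itself wide beside the median. Without the block 5 genes were called lower, 78 higher and 0 members. The replicate block gave 94 lower, 208 higher and 8 members, DESeq2 gave 81, 234 and 5, and no low-count filter gave 46, 176 and 9 members. RLE size factors gave 1 member, PIP1;4. Leaving out 1 library in turn gave 1 to 5 genes lower, 39 to 113 higher and 0 members each time, with TIP medians from -1.76 to -0.42, the last without Mock replicate 1. Leaving out both libraries of 1 number, chosen after the data were seen, gave 39 to 130 genes lower (60 without number 1), 116 to 221 higher (204 without number 1), 3 to 13 members and TIP medians from -1.28 to -0.72 with the block. Without number 1 and without the block it gave 1 lower, 44 higher, 0 members and a TIP median of -0.63. The NIP median, -0.11 over all libraries, was 0.28 without Mock replicate 1 and 0.09 without RGF1 replicate 3, and without number 1 it was 0.21 with the block and 0.26 without it. Over these settings the sign turned for PIP1;2 (-0.68 to 0.11 with 1 library left out, the last without Mock replicate 1; -0.79, called lower, with the block without number 2; 0.04 without number 1 and without the block), TIP2;2 (range -3.43 to 1.49; 0.26 without Mock replicate 1, 1.49 and 0.69 without number 1 with and without the block) and SIP1;1 (range -0.29 to 0.08; 0.08 without Mock replicate 2, 0.01 without RGF1 replicate 3). The cause of these changes was not tested. At these depths members near the floor could not be compared.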
